A study of Homo sapiens with 3 samples.

Results

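The HSP90 chaperones and the co-chaperones that work with them were examined in C4-2B cells, an established human prostate cancer line of LNCaP origin that grows without androgen, and in 2 drug-resistant sublines. The members were all probe sets on the Affymetrix HG-U133 Plus 2.0 array whose platform annotation gave HSP90AA1, HSP90AB1, HSP90B1, TRAP1, PPID, FKBP4, PTGES3, STIP1, AHSA1 or CDC37. These were 24 of 54675 probe sets, of which 22 were annotated to 1 member alone and 2 to HSP90B1 jointly with the microRNA gene MIR3652. The 22 probe sets read 9 of the 10 genes, out of 19775 genes read in all, and AHSA1 was not analysed here because no probe set carried its symbol. C4-2B MDVR cells were maintained in 20 µM enzalutamide, an androgen receptor antagonist, and C4-2B AbiR cells in 10 µM abiraterone acetate, an inhibitor of androgen synthesis. C4-2B parental cells grew in the same serum-containing medium without drug and were passaged alongside. Each line was measured on 1 array, so every difference below is between 2 arrays, has no replicate check and no p-value, and cannot be assigned to the drug.

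HSP90 is an ATP-driven chaperone that brings kinases, steroid receptors and other clients to their active form. The androgen receptor without ligand is held ready for hormone by HSP90 together with PTGES3 and 1 of several immunophilins, among them FKBP4 and PPID. STIP1 passes clients over from HSP70 to HSP90, CDC37 brings kinases to it, and AHSA1 speeds its ATPase cycle. HSP90AA1 is the stress-inducible and HSP90AB1 the constitutive cytosolic form, while HSP90B1 works in the endoplasmic reticulum (ER) and TRAP1 in mitochondria.

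Values are log2 RMA values that the authors had centred for each probe set, so that a value has no expression level behind it and only differences between arrays within a probe set can be read. For a gene with several probe sets the mean is given, and ± is the SD between its probe sets, a technical spread. A gene from the marker and related lists given without any ± had 1 probe set. Each array read the RNA of a whole culture, so that less transcript in every cell and its loss in part of the cells cannot be told apart. The 45 probe sets for spiked bacterial transcripts served as a scale. Between the MDVR and parental arrays their differences had an SD of 0.13 and reached 0.35 in size. Between the AbiR and parental arrays the SD was 0.10 and the largest size 0.20, and between the sublines they were 0.12 and 0.34. Of the 8 luminal prostate markers measured, 3 (KLK3, KLK2 and SLC45A3) were at least 1.5-fold lower in both sublines than in parental cells and 0 were 1.5-fold higher. Over all genes, 5.15% were that much lower in MDVR and 2.52% in AbiR, and 4.81% and 3.32% that much higher. The probe sets of KLK3 (−4.07 ± 3.23 in MDVR, −3.17 ± 2.36 in AbiR) and KLK2 (−1.29 ± 1.19, −2.12 ± 1.93) had a wide spread. SLC45A3 was at −2.91 ± 0.72 and −3.15 ± 0.35. HOXB13 was at 0.37 ± 0.44 in MDVR and 0.17 ± 0.045 in AbiR, and KRT8 at 0.32 and 0.30. TMPRSS2 was at −0.18 ± 0.11 and −0.45 ± 0.12, KRT18 at −0.10 in both and FOLH1 at 0.21 and −0.13. By any amount, 5 of the 8 were lower in MDVR and 6 in AbiR, against 42.4% and 52.4% of all genes. None of the 3 basal, 6 fibroblast, 4 endothelial and 3 leukocyte markers measured reached 1.5-fold in either, and without levels the line could not be checked further against its markers.

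The promoters of the cytosolic and ER forms carry different stress elements, and these are shown because both compartments are compared below with the heat shock and ER folding genes. Promoter windows of 250 bases before to 50 bases after each RefSeq start (GRCh38.p14) were found for 9 of the 10 members. Every motif was searched on both strands. The heat shock element, here TTC, GAA and TTC separated by any 2 bases each, is the binding site of heat shock factors. It occurred in 0.490% of 35116 windows of this length and, among the members, in HSP90AA1 and HSP90AB1. The ER stress element, CCAAT and CCACG separated by any 9 bases, serves the unfolded protein response. It occurred in 0.0769% of windows and, among the members, in HSP90B1, with 1 match as written and 1 on the other strand. Capitals mark the matches in the stretches below, read 5′ to 3′ along the gene, from chr14:102087095-102087157 (minus strand) for HSP90AA1, chr6:44247753-44247868 (plus strand) for HSP90AB1 and chr12:103930204-103930351 (plus strand) for HSP90B1.
HSP90AA1: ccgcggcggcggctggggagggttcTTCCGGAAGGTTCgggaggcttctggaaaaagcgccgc
HSP90AB1: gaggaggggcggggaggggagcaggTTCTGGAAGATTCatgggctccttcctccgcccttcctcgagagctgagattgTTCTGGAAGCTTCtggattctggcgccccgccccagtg
HSP90B1: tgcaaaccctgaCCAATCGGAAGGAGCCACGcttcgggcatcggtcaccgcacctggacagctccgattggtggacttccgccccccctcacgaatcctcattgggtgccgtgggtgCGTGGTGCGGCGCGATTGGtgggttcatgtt
The members had 14 windows, since a gene can have several starts. Of these, 2 held the heat shock element and 1 the ER stress element. Distances are from the RefSeq start of the window with the match, which in HSP90AA1 and HSP90AB1 lies inside the annotated gene. The match began 88 bases before the start in HSP90AA1, 165 and 112 bases before it in HSP90AB1, and 194 and 89 bases before it in HSP90B1. Each longer element also holds the shorter ones, which occur outside it as well. TTC and GAA 2 bases apart were in 7.74% of windows and in those of HSP90AA1, HSP90AB1 and STIP1, and GAA and TTC 2 bases apart were in 6.77% and in those of HSP90AA1 and HSP90AB1. CCAAT alone was in 34.6% of windows and in those of HSP90AA1, HSP90B1 and STIP1. An androgen response element of AGAACA and TGTTCT separated by any 3 bases was in 0.00285% of windows and in 0 of the members' windows. A match is a description of the letters, and binding was not measured.

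The cytosolic HSP90 genes differed little between the MDVR and parental arrays. HSP90AA1 had a mean centred value of 0.038 in MDVR cells, −0.11 in AbiR cells and −0.020 in parental cells. Its log2 difference from parental was 0.058 ± 0.074 in MDVR and −0.086 ± 0.088 in AbiR over 4 probe sets, both within the SD of the spiked controls. The most divergent of its probe sets read 0.11 in MDVR cells, −0.27 in AbiR cells and −0.060 in parental cells, while the other 3 were at most 0.030 from parental in MDVR. HSP90AB1 had 0.036 in MDVR cells, −0.24 in AbiR cells and 0.088 in parental cells. Its difference was −0.052 ± 0.081 in MDVR and −0.33 ± 0.074 in AbiR (3 probe sets). The AbiR value was 1.26-fold lower than the parental one and exceeded the largest difference of any spiked control. All 3 probe sets of HSP90AB1 were lower in AbiR, by −0.42, −0.29 and −0.29. The HSP90AA1 probe sets lay between −0.21 and 0.0020 for AbiR minus parental, above all those of HSP90AB1. These genes have related sequences and pseudogenes, and probe sets with a suffix can read more than 1 of them.

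HSP90B1, the ER form that folds receptors and secreted proteins, had the lowest difference between AbiR and parental cells of the 4 HSP90 genes. It had −0.011 in MDVR cells, −0.57 in AbiR cells and 0.011 in parental cells. The difference from parental was −0.022 ± 0.064 in MDVR and −0.58 ± 0.32 in AbiR (2 probe sets), 1.49-fold lower in AbiR. The 2 probe sets were lower by −0.35 and −0.80 in AbiR although both were designed on the same accession, so that the direction was shared and the size was not. The 2 probe sets annotated jointly to HSP90B1 and MIR3652 differed from parental by −0.031 and −0.11 on the MDVR array. On the AbiR array they differed by −0.48 and −0.23, and with them the HSP90B1 value in AbiR was −0.46. Every HSP90B1 probe set has a suffix. TRAP1, the mitochondrial form, had 0.090 in MDVR cells, −0.021 in AbiR cells and 0.021 in parental cells. Its differences of 0.069 ± 0.024 and −0.042 ± 0.12 (2 probe sets) were below the SD of the spiked controls, and its probe sets went both ways in AbiR.

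**Figure D1:**
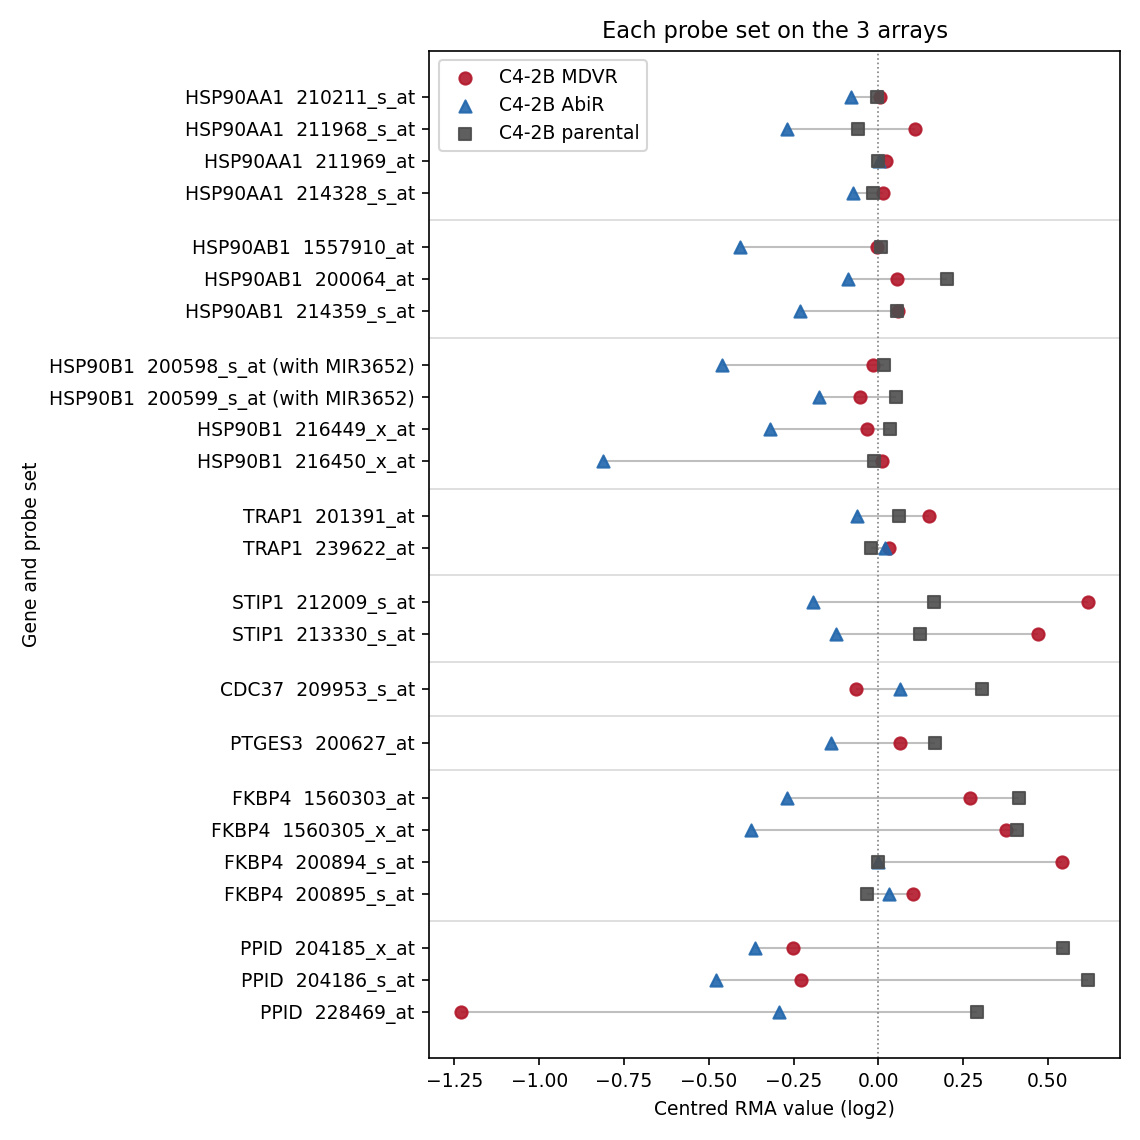
Centred RMA values (x axis, log2) of the 24 probe sets (y axis) on the C4-2B MDVR, C4-2B AbiR and C4-2B parental arrays, 1 symbol per array, with a grey line over their range. The AbiR symbol is leftmost for all 3 HSP90AB1 probe sets and for both STIP1 probe sets, and the parental symbol is rightmost for all 3 PPID probe sets.

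Among the co-chaperones that load clients, STIP1 differed in opposite directions in the sublines. STIP1 had 0.54 in MDVR cells, −0.16 in AbiR cells and 0.14 in parental cells. It was 1.32-fold higher in MDVR than in parental cells (0.40 ± 0.075, 2 probe sets) and 1.23-fold lower in AbiR than in parental cells (−0.30 ± 0.077). One probe set read 0.62 in MDVR cells, −0.19 in AbiR cells and 0.17 in parental cells, and the other 0.47, −0.12 and 0.12. The parental array lay between the sublines by both. STIP1 had the highest difference of the 9 genes in MDVR minus parental, above those of 90.4% of all genes. CDC37, the kinase-specific co-chaperone, had −0.065 in MDVR cells, 0.065 in AbiR cells and 0.31 in parental cells. It was 1.29-fold lower in MDVR (−0.37) and 1.18-fold lower in AbiR (−0.24). By gene means it was the only member besides PPID with its lowest value on the MDVR array. For PPID this depended on the probe set. For CDC37 the sublines differed by −0.13, close to the SD of the spiked controls. CDC37 was read by 1 probe set, so that no spread can be given.

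Of the co-chaperones of steroid receptor complexes, PTGES3 and FKBP4 had their lowest mean values on the AbiR array and PPID on the MDVR array. The place of PPID rested on 1 of its 3 probe sets. For FKBP4, 1 of 4 probe sets was not lowest on the AbiR array. PTGES3, which stabilizes the closed, ATP-bound form of HSP90, had 0.063 in MDVR cells, −0.14 in AbiR cells and 0.17 in parental cells by its single probe set. The differences from parental were −0.11 in MDVR and −0.31 in AbiR, the first within the SD of the spiked controls and the second beyond their largest difference. FKBP4, an immunophilin that aids transport and hormone binding of steroid receptors, had 0.32 in MDVR cells, −0.15 in AbiR cells and 0.20 in parental cells. Its differences of 0.12 ± 0.30 in MDVR and −0.35 ± 0.45 in AbiR (4 probe sets) were smaller than the spread between its probe sets. The FKBP4 probe sets fell into pairs. The pair designed on the accession W25881 differed from parental by −0.15 and −0.034 on the MDVR array and by −0.68 and −0.79 on the AbiR array. For the other pair the differences were 0.54 and 0.14 on the MDVR array, against −0.00014 and 0.064 on the AbiR array. All 4 FKBP4 probe sets were nonetheless higher in MDVR than in AbiR, by 0.54, 0.75, 0.54 and 0.071.

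PPID, a cyclophilin that occupies the same place in receptor complexes as FKBP4, was farthest from the parental array of the 9 genes. It had −0.57 in MDVR cells, −0.38 in AbiR cells and 0.49 in parental cells. Relative to parental cells, PPID was 2.08-fold lower in the MDVR line (−1.06 ± 0.41, 3 probe sets). In the AbiR line it was 1.82-fold lower (−0.86 ± 0.26), and only 1.42% and 1.08% of all genes had lower differences. All 3 probe sets were lower in both sublines. By the pair with a suffix for shared probes the differences were −0.80 and −0.85 on the MDVR array, against −0.91 and −1.10 on the AbiR array. The third read −1.23 in MDVR cells, −0.29 in AbiR cells and 0.29 in parental cells, a difference of −1.52 for MDVR and −0.58 for AbiR, so that the order of the 2 sublines depends on the probe set. For MDVR minus AbiR, PPID was at −0.19 ± 0.65, and the median of its probe sets was 0.11.

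As a group, the 9 genes had a median below that of all genes on the AbiR array and close to it on the MDVR array. At least 1.5-fold differences from parental were found for 1 of 9 genes in MDVR and 1 of 9 in AbiR, PPID in both cases and lower in both (a log2 difference of at least 0.585 in size), against a background of 5.15% of all genes lower in MDVR and 2.52% lower in AbiR. None of the 9 was at least 1.5-fold higher, where the background was 4.81% and 3.32%. The AbiR call of PPID rested on its suffixed probe sets, since the third alone, at −0.584, fell just short of 1.5-fold. At 2-fold, 1 gene, PPID, was lower in MDVR (1.67% of all genes) and 0 in AbiR (0.804%), and 0 were higher in either (1.65% and 1.07%). With the median of its probe sets, PPID was at −0.85 in MDVR, short of 2-fold. The median difference of the 9 genes was −0.022 in MDVR and −0.31 in AbiR, against medians of 0.044 and −0.011 over all genes. By any amount, 9 of 9 genes were lower in AbiR than in parental cells (52.4% of all genes) and 0 were higher (47.4%), while in MDVR 5 of 9 were lower (42.4%) and 4 higher (57.4%). Of the 22 probe sets, 19 were lower in AbiR (52.2% of all probe sets annotated to 1 gene) and 10 were lower in MDVR (43.9%). The 3 probe sets that were not lower in AbiR, 1 each of HSP90AA1, TRAP1 and FKBP4, had differences of 0.0020, 0.040 and 0.064. The 2 comparisons share the parental array. The direction was known from earlier results on these arrays and is no independent evidence.

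Scaling moved with this result. Centring each array on the median of its spiked hybridization controls lowered every difference from parental by 0.047 in MDVR and 0.080 in AbiR, so that 68.8% of all genes were lower in AbiR and 49.9% had their lowest value there, against 9 of 9 and 7 of 9 members. The members were then at a median of −0.39 against −0.091 over all genes. HSP90B1, read without its jointly annotated probe sets, joined PPID below the 1.5-fold line. RNA integrity was read from the 3′ end of ACTB against its 5′ end. This contrast was lower than on the parental array by −0.22 for MDVR and −0.12 for AbiR, and the GAPDH one stood at −0.047 for MDVR and 0.061 for AbiR. Their part in the result was not tested.

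**Figure D2:**
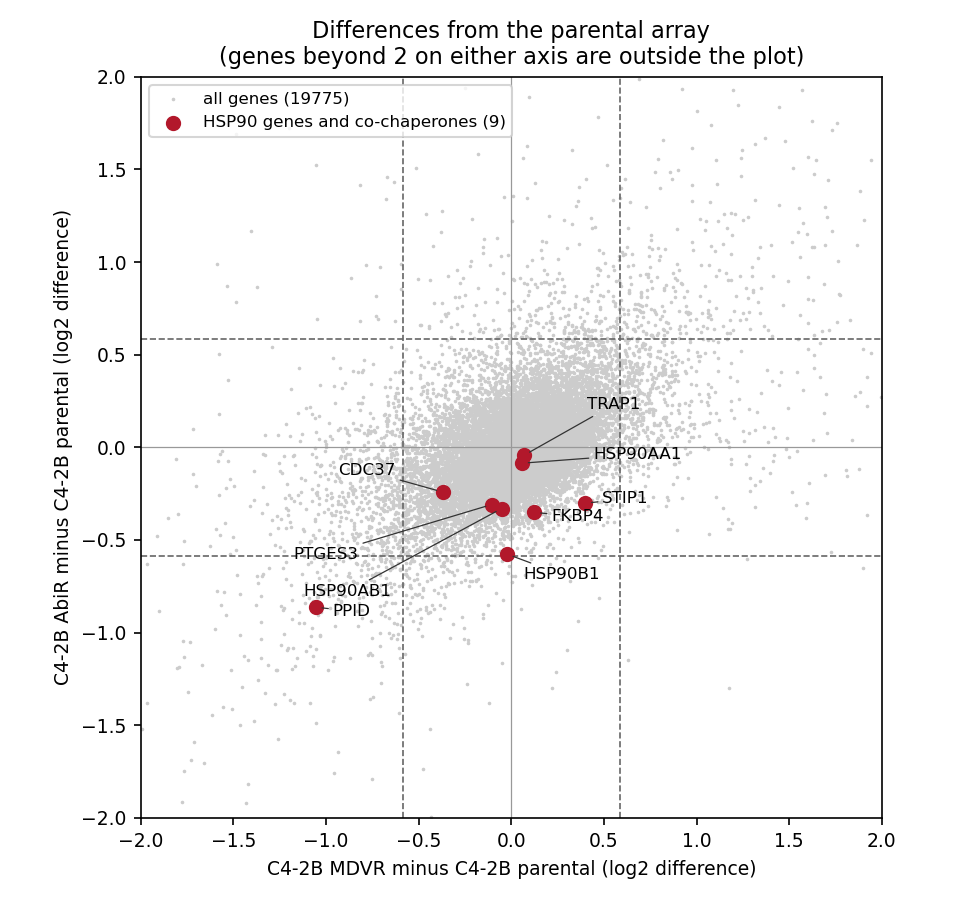
Log2 difference between the MDVR and parental arrays (x axis) against that between the AbiR and parental arrays (y axis), 1 array per line, for 19775 genes in grey and the 9 HSP90 genes and co-chaperones in red, with dashed lines at 1.5-fold and genes beyond 2 on an axis outside the plot. All 9 lie below 0 on the y axis, from TRAP1 at −0.042 to PPID at −0.86, while STIP1 lies farthest right at 0.40.

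The sublines were also set against each other, which leaves the parental array out. STIP1 was 1.63-fold higher in MDVR than in AbiR (0.70 ± 0.15, 2 probe sets), and was the only 1 of the 9 genes at least 1.5-fold higher, where 2.77% of all genes were. Both STIP1 probe sets have a suffix, so that no value of STIP1 is left without them. None was at least 1.5-fold lower, against 3.96% of all genes, and at 2-fold 0 were higher (0.875%) and 0 lower (1.13%). HSP90B1 was 1.47-fold (0.55 ± 0.38) and FKBP4 1.39-fold (0.48 ± 0.29) higher in MDVR. With its jointly annotated probe sets HSP90B1 was at 0.42, below FKBP4. HSP90AB1 (0.28 ± 0.13), PTGES3 (0.20), HSP90AA1 (0.14 ± 0.16) and TRAP1 (0.11 ± 0.14) followed. HSP90AA1 and TRAP1 had differences no larger than their spread. CDC37 (−0.13) and PPID (−0.19 ± 0.65) were on the other side, the first close to the SD of the spiked controls and the second with probe sets going both ways. The median of the 9 genes was 0.20, against 0.054 over all genes. In all, 7 of 9 genes were higher in MDVR than in AbiR (59.9% of all genes) and 2 lower (39.9%), and higher were also 20 of 22 probe sets (57.6%). AbiR held the lowest of the 3 values for 7 of 9 genes (36.4% of all genes), MDVR for 2 (28.3%) and parental for 0 (35.1%). By probe set, it was AbiR for 17 of 22 (36.0%), MDVR for 2 (30.1%) and parental for 3 (33.8%). The highest value was on the parental array for 5 genes (30.1%), on the MDVR array for 4 (45.7%) and on the AbiR array for 0 (23.9%).

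Further co-chaperones of HSP90 were read from a list of 28 genes, of which 26 were measured. Of these, 3 passed 1.5-fold on the low side in the MDVR line, FKBP5, FNIP2 and FNIP1. In the AbiR line 2 did, FKBP5 and FNIP2, and 0 passed on the high side in either. Over all genes, 5.15% and 2.52% were that much lower. FKBP5, the third immunophilin of steroid receptor complexes and an androgen-induced gene, was at −1.96 ± 0.14 in MDVR and −2.09 ± 0.14 in AbiR (3 probe sets). FNIP1 and FNIP2, folliculin partners that slow the HSP90 ATPase, differed by −0.73 ± 0.37 and −1.02 ± 0.73 on the MDVR array, against −0.23 ± 0.36 and −0.79 ± 0.52 on the AbiR array. The highest values in MDVR were those of DNAJC7 (0.37 ± 0.031) and of folliculin itself, FLCN (0.33 ± 0.088). DNAJC7 is a chaperone that binds both HSP70 and HSP90. In AbiR the highest were TSC1 (0.43) and FKBP8 (0.27 ± 0.17). The list had medians of −0.075 in MDVR and −0.16 in AbiR, with 15 and 18 of 26 genes lower than in parental cells, against 42.4% and 52.4% of all genes. CHORDC1, a heat-inducible HSP90 partner, was at −0.062 ± 0.32 in MDVR and −0.49 ± 0.35 in AbiR. STUB1, the ubiquitin ligase that binds HSP70 and HSP90, was at −0.33 ± 0.018 in MDVR and −0.041 ± 0.0092 in AbiR.

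ER folding genes, which share the compartment of HSP90B1, were on the low side in AbiR almost throughout. Of 19 genes, 18 were lower in AbiR than in parental cells and 12 were lower in MDVR, with medians of −0.25 in AbiR and −0.19 in MDVR. Over all genes, 52.4% were lower in AbiR and 42.4% in MDVR, with medians of −0.011 and 0.044. Only MANF, a secreted ER stress factor, passed 1.5-fold in AbiR (−0.59). SDF2L1 (−0.52), PDIA6 (−0.50 ± 0.027, 4 probe sets) and HYOU1 (−0.49) followed. P4HB was the exception at 0.19 ± 0.023. HSPA5, the ER form of HSP70, was at −0.50 ± 0.37 in MDVR and −0.40 ± 0.0014 in AbiR. In MDVR, DNAJB9 (−0.93 ± 0.22), CANX (−0.75 ± 0.33) and DNAJC3 (−0.66 ± 0.16) were at least 1.5-fold lower. Of all genes, 5.15% were that much lower in MDVR and 2.52% in AbiR. None of the 19 was at least 1.5-fold higher in either, where 4.81% and 3.32% of all genes were. HSP90B1 with −0.022 stood among those near 0 in MDVR and, with −0.58, next to the lowest of them in AbiR. With its jointly annotated probe sets it was at −0.46 in AbiR, less low than MANF, SDF2L1, PDIA6 and HYOU1.

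Mitochondrial protein quality genes, the neighbours of TRAP1 by compartment, had medians of −0.078 in MDVR and −0.20 in AbiR, and 9 and 13 of 14 were lower than in parental cells, where 42.4% and 52.4% of all genes were. GRPEL2, a nucleotide exchange factor of mitochondrial HSP70, had the lowest values, at −0.64 ± 0.41 in MDVR and −0.54 ± 0.099 in AbiR. HTRA2 (0.28 ± 0.091) was highest in MDVR and SPG7 (0.11) in AbiR. TRAP1 lay above the median of this list in both sublines.

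Heat shock factors and heat shock genes, the set that responds with HSP90AA1 to protein damage, went both ways. Of 19 genes, 15 were measured, with medians of −0.20 in MDVR and −0.11 in AbiR. HSF1, the main activator of the heat shock response, was at 0.014 ± 0.051 in MDVR and 0.085 ± 0.12 in AbiR. HSPH1, a nucleotide exchange factor of HSP70, was at −1.15 ± 0.40 in MDVR and −0.26 ± 0.12 in AbiR, and HSPA4L, of the same family, was at −0.23 ± 0.38 and −1.06 ± 0.35. HSPB1 was at −0.60 in AbiR. On the high side were the small heat shock proteins CRYAB in MDVR (0.67) and HSPB8 in AbiR (0.61 ± 0.94), and the collagen chaperone SERPINH1 in AbiR (0.76). HSP70 partners DNAJA1 and DNAJB1 were at −0.0016 ± 0.23 and −0.019 ± 0.094 on the MDVR array, against −0.17 ± 0.16 and 0.19 ± 0.18 on the AbiR array.

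**Figure D3:**
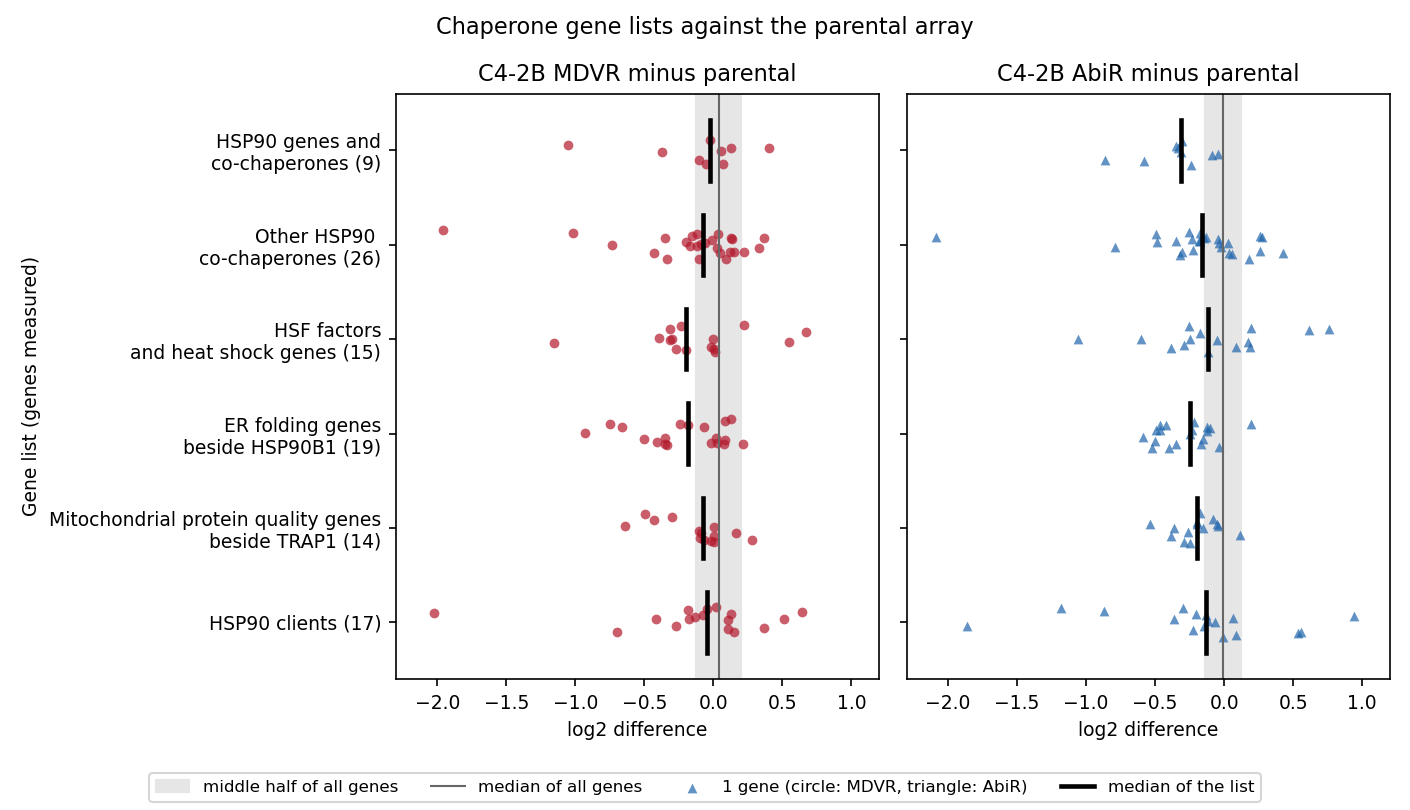
Difference from the parental array on the log2 scale (x axis) for C4-2B MDVR (left) and C4-2B AbiR (right) for the 9 members and 5 lists of related genes (y axis, with the number measured), 1 symbol per gene, a black bar at the list median and a grey band between the quartiles of all genes. The median of the members lies at −0.022 in MDVR, inside the band, and at −0.31 in AbiR, left of it.

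PPID also had neighbours on its chromosome with low values. On chromosome 4, in the order of protein-coding genes in RefSeq, it lies between ETFDH and FNIP2, and C4orf46 follows ETFDH on the far side. C4orf46 was at −1.35 ± 0.20 in MDVR and −0.94 ± 0.048 in AbiR (2 probe sets), and FNIP2, itself an HSP90 co-chaperone, was the other neighbour with values like those of PPID. On 3 of the 4 FNIP2 probe sets the differences were −1.67, −1.07 and −1.35 for MDVR, against −1.22, −0.87 and −1.03 for AbiR, and on the remaining one 0.011 and −0.037. ETFDH, an electron transfer flavoprotein dehydrogenase between C4orf46 and PPID, had smaller differences of −0.37 ± 0.045 and −0.14 ± 0.16. Among the 10 nearest measured neighbours of PPID, 2 passed 1.5-fold on the low side for MDVR and 3 for AbiR. Over all genes, 5.15% and 2.52% did. The third in AbiR was NAF1, at −1.02 by 1 probe set. Other neighbours had high values, FSTL5 at 5.59 in MDVR by 1 probe set and GASK1B at 1.94 ± 0.18 in AbiR. Whether the position has a part in the values of PPID was not tested. Around the other 8 members, the same count of up to 10 neighbours gave 0 in both sublines, except for PTGES3 with 1 in each. The neighbours were examined after the values of PPID and FNIP2 had been seen.

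**Figure D4:**
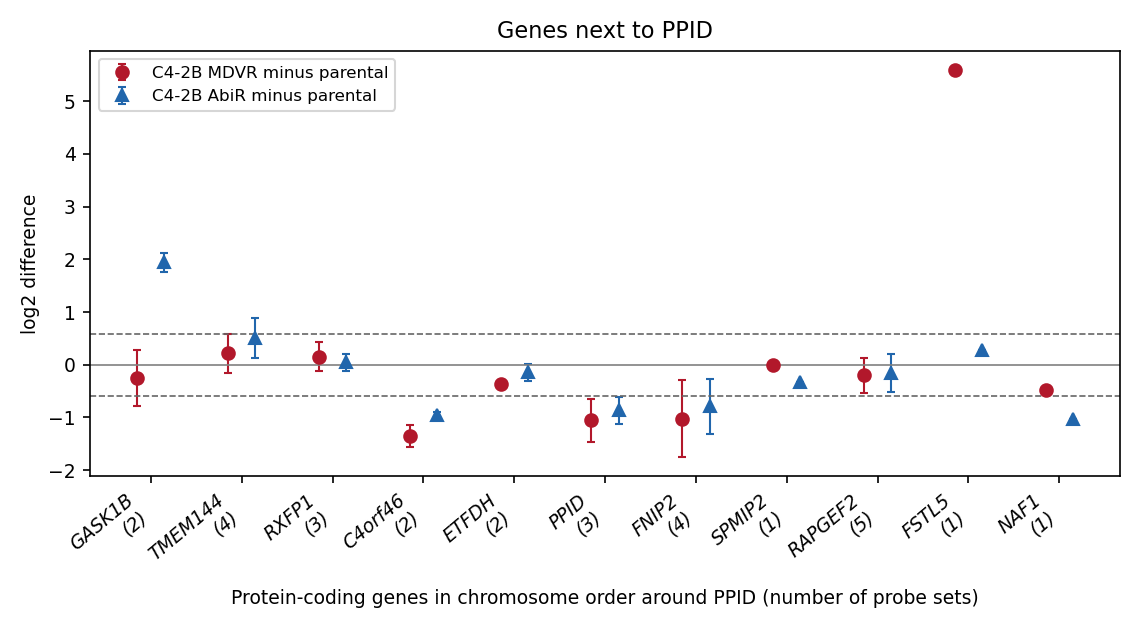
Log2 differences from the parental array (y axis) of PPID and its 5 neighbouring protein-coding genes on each side, in chromosome order (x axis, with the number of probe sets), for C4-2B MDVR (circles) and C4-2B AbiR (triangles), with bars for the SD between probe sets (none for 1 probe set) and dashed lines at 1.5-fold. C4orf46, PPID and FNIP2 lie below the lower dashed line in both sublines, at −1.35, −1.06 and −1.02 in MDVR.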

How the data were processed

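Total RNA of C4-2B MDVR, C4-2B AbiR and C4-2B parental cells was hybridized to 1 HG-U133 Plus 2.0 array each. The authors deposited log2 values, made by RMA per the labels (version not given in the sources used here) and further centred for each probe set. The 3 values of a probe set could be explained by a median of 4 arrays moved to 0 in 100% of cases (tolerance 2e-06), so that 1 further array, not analysed here, appears to have entered the centring. Groups came from the sample labels. The platform annotation gave the gene names, 41097 probe sets having 1 gene, 1801 several and 11777 none (controls included). Gene IDs were matched to RefSeq GRCh38.p14 for 99.9% of those with 1 gene, and that assembly gave names, gene order and promoter windows.

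Differences were taken per probe set and averaged per gene (Python 3.11.15, pandas 2.3.3), and at least 1.5-fold was counted as different. With 1 array per line no test was possible, and the number of arrays limits the precision. Alternatives were the median or the most variable probe set, leaving out suffixed probe sets, adding jointly annotated ones, and 2 scalings. The members, lists and rules were chosen with earlier results of these data known. All members were named, and from the lists the genes past 1.5-fold and the 2 highest and lowest, of which not all are given, besides a few others for their role.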

Additional observations from a re-analysis of the deposited data

Results flagged for a closer look

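STIP1 differed from the parental array in opposite directions in the 2 sublines, by 0.40 in MDVR and by −0.30 in AbiR. Each was beyond the SD of the spiked controls, but 18.7% of all genes differed by more in size in MDVR and 19.0% in AbiR. The difference between the sublines, 0.70 on the log2 scale, was not tested, since each line had 1 array. No other member with differences of that size went both ways.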

How the results depend on the processing

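Median differences of the members kept their sign under all alternatives and moved by less than the SD of the spiked controls, except for MDVR minus AbiR, where the probe set with the largest SD over the arrays gave 0.38 in place of 0.20. The count of members at least 1.5-fold different in MDVR minus parental was 1, PPID, throughout. The share of all genes was 9.97% in the main setting, 3.33% at 2-fold and 18.4% with the most variable probe set. In AbiR minus parental the count was 0 at 2-fold, 2 with the most variable probe set and 2 with arrays centred on hybridization controls. Over all genes, the shares were 1.88%, 10.4% and 5.90%, against 5.84% in the main setting. In MDVR minus AbiR the count was 0, 4 and 2 in the same order. There the shares of all genes were 2.01%, 15.6% and 6.65%, against 6.74%. Both counts were 1 in the main setting. The genes behind these counts were not the same. With the most variable probe set, the AbiR genes were HSP90B1 (−0.80) and FKBP4 (−0.79), and without suffixed probe sets FKBP4 alone (−0.68), PPID being at −0.584 in both. In MDVR minus AbiR, HSP90B1 (0.82), STIP1 (0.81), FKBP4 (0.75) and PPID (−0.94) passed with the most variable probe set, and PPID alone (−0.94) without suffixed ones. Leaving out the 14 suffixed probe sets (_s, _x, _a) left 6 genes. Of these, 5 were lower in AbiR than in parental cells (52.2% of all genes) and 4 had their lowest value there (35.0%). These last counts were chosen after seeing the data. By single genes, FKBP4 in MDVR minus parental changed sign, to −0.15 without suffixed probe sets and −0.034 with the most variable one. HSP90B1 in the same comparison went to 0.023, HSP90AA1 in AbiR minus parental to 0.0020 and PPID in MDVR minus AbiR to 0.11. No paired analysis was possible because each line had 1 array. Differences near the spread of the spiked controls cannot be resolved. HSP90 genes also have related paralogs and pseudogenes that probe sets with a suffix may read.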

Other observations

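Clients of HSP90 were read from a list of 21 genes, 17 of them measured, with medians of −0.043 in MDVR and −0.13 in AbiR. IGF1R, the receptor of insulin-like growth factor 1, had the lowest values, at −2.03 ± 1.86 in MDVR and −1.86 ± 1.48 in AbiR over 5 probe sets with a wide spread. The mineralocorticoid receptor gene NR3C2 was at −0.70 and −1.18, and HIF1A at −0.42 and −0.87. AHR, a ligand-activated receptor kept in the cytosol by HSP90, was at 0.64 in MDVR and −0.13 in AbiR, and PGR at −0.043 ± 0.029 and 0.94 ± 1.02. The kinase clients ERBB2 and MET differed by 0.51 ± 0.44 and 0.36 ± 0.23 on the MDVR array, against 0.54 ± 0.50 and 0.56 ± 0.85 on the AbiR array.

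The 5 genes nearest to PPID over its 2 differences from parental, among 3066 genes whose 2 or more probe sets shared a direction in each subline, were AIMP1, CAP2, EMB, PLCB4 and FGFR3. AIMP1 lay at a Euclidean distance of 0.027, with −1.06 in MDVR and −0.89 in AbiR, and FGFR3 at 0.085. AIMP1 and FGFR3 lie on chromosome 4, as PPID does, but neither is among its 5 neighbouring genes on each side. With 2 values per gene and a shared parental array, the likeness is a description only.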
